A study of Mus musculus with 60 samples.

Results

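The genes described here are the 8 mouse Smad genes and 2 receptors for bone morphogenetic proteins (BMPs): Smad1, Smad5, Smad9, Smad2, Smad3, Smad4, Smad6, Smad7, Bmpr1a and Bmpr2. They were chosen by name as a signalling family, 10 of 21887 protein-coding genes in the RefSeq table. A peak was assigned to a gene when it touched the gene body or the 10 kb on either side.

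The tissue was dorsal root ganglion (DRG) from lumbar levels L4 to L6, which holds the cell bodies of the sensory neurons that run in the sciatic nerve, with satellite glia, Schwann cells and macrophages around them. All mice were C57BL/6, 6 to 8 weeks old, and tissue was taken 24 hours after 1 of 4 surgeries: sciatic nerve axotomy (SNA), its sham operation (Sham), a cut of the dorsal columns in the spinal cord (DCA, dorsal column axotomy), or laminectomy (Lam), in which the vertebral arch is opened. No labelled group carried an engineered allele or a drug, and no unoperated ganglion was analysed here. The same neurons send a branch into the nerve and a branch into the dorsal columns, so the design sets a peripheral cut against Sham and a central cut against Lam. Lam against Sham compares 2 surgeries without axotomy.

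Acetylation of histone H3 at lysine 9 (H3K9ac) and lysine 27 (H3K27ac) marks active promoters and enhancers, trimethylation at lysine 27 (H3K27me3) marks Polycomb-repressed chromatin, and ATAC-seq marks DNA that a transposase can reach. For every surgery there were 2 ChIP samples with 2 inputs per mark, pooling 10 mice per sample, and 3 ATAC samples from single mice. The authors pooled the replicates into 1 peak list per assay and surgery, 16 lists in all. No value below therefore has a replicate error, and no difference between surgeries was tested. The 95% Wilson intervals given for shares cover counting error only. In a whole ganglion, fewer cells of a type and less signal per cell cannot be told apart.

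BMPs bind type I receptors such as Bmpr1a together with the type II receptor Bmpr2. The receptors phosphorylate Smad1, Smad5 and Smad9, which join Smad4 and enter the nucleus. Smad2 and Smad3 carry the parallel signal of transforming growth factor beta (TGF-β) and activin and also join Smad4. Smad6 and Smad7 are inhibitory SMADs that are induced by the pathway and feed back on it. In sensory neurons, Smad1 is known for its part in axon growth after peripheral nerve injury.

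The lists held 153556 to 174605 ATAC peaks, 43803 to 75824 H3K27ac peaks, 50332 to 89647 H3K9ac peaks and 90011 to 154055 H3K27me3 peaks. The scaled background behind the H3K9ac lists differed most. Recovered from the authors' fold and p-value columns, it was 1.68 reads after Sham, 2.08 after SNA, 3.04 after Lam and 5.2 after DCA. Before scaling, by factors of 0.3153 to 0.9177, these 4 lists were nearly level at 4.98 to 5.666 reads. The scaled background was 2.11 to 3.08 reads in the H3K27ac lists and 16.19 to 18.38 in the ATAC lists. In the H3K27me3 lists at most 1.312% of peaks had a q of at most 0.05, and none of the peaks at the 10 genes did. Of 8 sensory neuron markers, 7 had an ATAC peak at the start in Sham and 8 in the other lists. Acetylation at the marker starts was mainly glial: 4 to 6 of 6 satellite glia and Schwann cell markers had an H3K27ac peak at the start in each list, against 2 to 3 of the 8 neuronal markers. None of 5 macrophage markers had one, and only Csf1r had an H3K9ac peak, in DCA. None of 6 markers of other tissues (Alb, Myh6, Cdx2, Ins2, Pax6, Krt5) had an acetylation peak at its start. ATAC peaks did lie at the starts of 2 of these 6 in Sham and 3 in each other list. They also lay at 4 to 5 of the 6 glial and 2 to 3 of the 5 macrophage starts. An ATAC peak at a start was thus not particular to markers of ganglion cells.

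The starts of these genes were open after every surgery. All 10 genes had an ATAC peak within 1 kb of the start in each of the 4 lists, where 82.1% to 84% of 4580 genes of like length with a known start had one. (Genes of like length are those between the shortest gene of the family, Smad7 at 28571 bp, and the longest, Bmpr2 at 113803 bp; for Smad2, Smad4 and Smad7 a peak at either gene end was counted.) RefSeq promoter windows of GRCm38.p6, 250 bases before to 50 after the start, were matched for 7 of the 10 genes. Those windows hold 23 to 48 CpG dinucleotides, against a median of 7 and an upper quartile of 20 over 32851 windows, and their GC content is 59.3% to 79.3% against a median of 52.7%. All 7 genes' windows were touched by an ATAC peak in all 4 lists.

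The windows of 4 genes are shown because their starts differ most in acetylation or motifs: Bmpr2 was acetylated at the start in every list, Smad9 and Smad3 in few lists of one or the other mark, and Smad6, alone among the 7 matched genes, holds the SMAD palindrome. Bases are 5′ to 3′ on the gene's strand. Capitals mark GTCTAGAC, the palindrome that SMAD proteins bind, and GGCGCC, a GC-rich motif described for BMP-activated SMADs. Both read the same on both strands and do not overlap here. The positions are chr1:59764029-59764328 (plus strand) for Bmpr2, chr3:54755332-54755631 (plus strand) for Smad9, chr9:63757945-63758244 (minus strand) for Smad3, chr9:64022010-64022309 (minus strand) for Smad6.
Bmpr2: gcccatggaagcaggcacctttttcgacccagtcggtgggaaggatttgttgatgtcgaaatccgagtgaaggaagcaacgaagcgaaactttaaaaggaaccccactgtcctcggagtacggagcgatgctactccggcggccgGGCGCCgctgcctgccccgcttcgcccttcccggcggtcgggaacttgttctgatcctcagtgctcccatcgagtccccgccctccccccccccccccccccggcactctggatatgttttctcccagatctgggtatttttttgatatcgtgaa
Smad9: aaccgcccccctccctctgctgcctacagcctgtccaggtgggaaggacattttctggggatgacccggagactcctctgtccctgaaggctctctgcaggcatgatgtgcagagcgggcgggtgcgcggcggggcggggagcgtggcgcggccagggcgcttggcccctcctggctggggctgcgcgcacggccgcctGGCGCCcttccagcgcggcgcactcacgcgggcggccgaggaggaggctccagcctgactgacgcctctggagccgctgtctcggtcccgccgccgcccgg
Smad3: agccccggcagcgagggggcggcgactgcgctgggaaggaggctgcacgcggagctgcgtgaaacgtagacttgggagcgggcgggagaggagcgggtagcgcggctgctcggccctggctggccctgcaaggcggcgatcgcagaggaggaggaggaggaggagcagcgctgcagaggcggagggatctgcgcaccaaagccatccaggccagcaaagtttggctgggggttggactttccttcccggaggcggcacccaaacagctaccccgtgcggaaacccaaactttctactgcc
Smad6: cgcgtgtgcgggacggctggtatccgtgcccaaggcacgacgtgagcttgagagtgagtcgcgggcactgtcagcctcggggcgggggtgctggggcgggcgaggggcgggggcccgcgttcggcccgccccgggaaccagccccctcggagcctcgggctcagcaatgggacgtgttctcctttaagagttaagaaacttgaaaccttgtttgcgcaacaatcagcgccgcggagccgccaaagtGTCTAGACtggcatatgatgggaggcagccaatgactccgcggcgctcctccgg
GTCTAGAC is in 0.213% of all windows (70 of 32851) and GGCGCC in 11.9%. In Smad6 the palindrome begins 4 bases before the start. GGCGCC begins 51 bases before the start of Smad9, 105 before that of Bmpr2 and 198 before that of Bmpr1a. It also lies in 2 of the 3 Smad5 windows, and the Smad1 and Smad3 windows hold neither motif. These are matches of letters and not measured binding.

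Acetylation at the starts was less complete than accessibility. H3K27ac peaks lay at the starts of 6 of the 10 genes after Sham, 9 after SNA, 8 after Lam and 9 after DCA, and among 4580 genes of like length the shares were 49.7%, 65.1%, 64.1% and 54.3%. H3K9ac peaks lay at 7, 6, 7 and 10 starts, against 62.8%, 63.8%, 65.5% and 74.5% of those genes. H3K27me3 peaks touched only Smad1 in Sham and an end of Smad4 in SNA, with folds of 1.097 and 1.074 and no support at a q of 0.05.

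**Figure D1:**
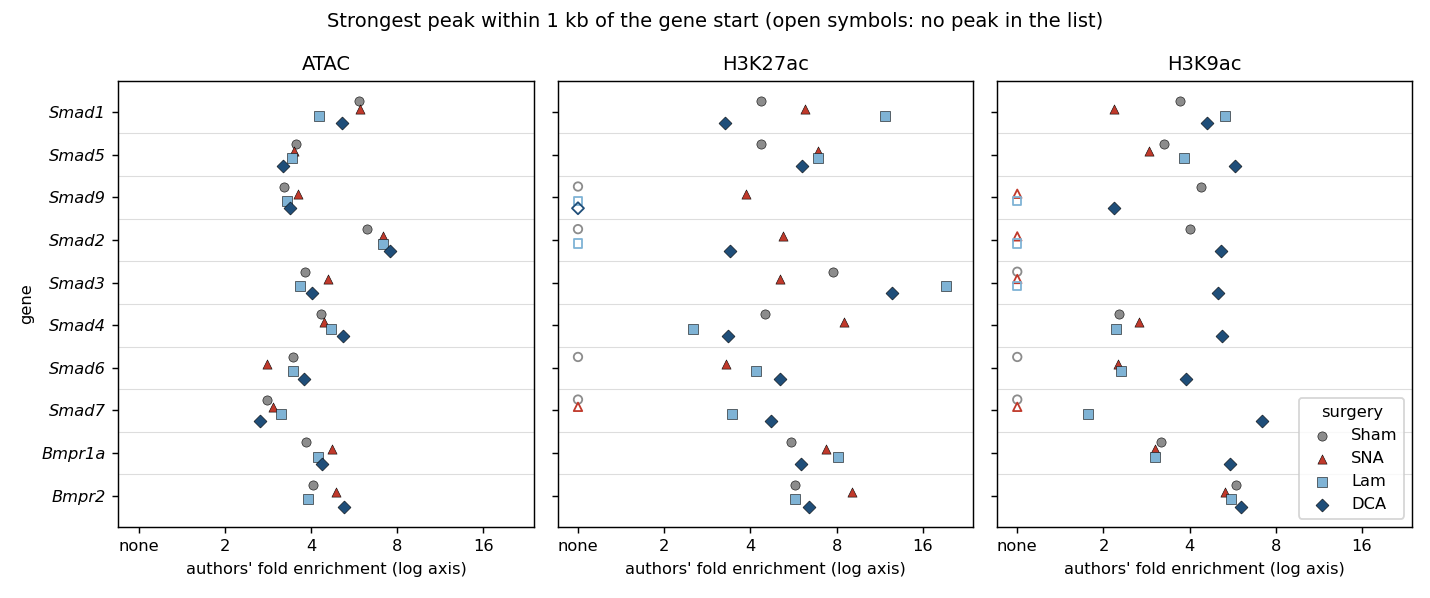
The authors' fold enrichment (log axis) of the strongest peak within 1 kb of each gene's start (either end for Smad2, Smad4 and Smad7) in the ATAC, H3K27ac and H3K9ac lists of the 4 surgeries. The strongest peaks of different lists need not overlap. Open symbols at "none" are lists without a peak there; every gene has an ATAC peak in every list, and all 10 have an H3K9ac peak only in DCA.

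Both receptors kept acetylated, open starts in all lists. Folds at a start, here and below, are those of the strongest peak within 1 kb, which can lie at a different place in each list. Bmpr1a, the type I receptor, had an ATAC fold at its start of 3.839 after Sham, 4.715 after SNA, 4.224 after Lam and 4.359 after DCA. Its H3K27ac folds there were 5.534, 7.341, 8.093 and 5.99, and its H3K9ac folds 3.187, 3.037, 3.034 and 5.515, in the same order. The SNA H3K27ac peak and the Lam H3K9ac peak did not overlap the strongest peaks of the other lists. The DCA H3K9ac peak is the highest of its mark and comes from the list with the highest scaled background, whose part in it was not tested. Bmpr2, the type II receptor, had ATAC folds of 4.072, 4.879, 3.89 and 5.224 at its start. Its H3K27ac folds were 5.731, 9.051, 5.75 and 6.385, and its H3K9ac folds 5.791, 5.328, 5.572 and 6.025. The strongest H3K9ac peak within 1 kb of the Bmpr2 start thus had folds of 5.328 to 6.025, and the strongest H3K27ac peak was highest in SNA. These peaks did not all lie at the same place. For H3K9ac that of DCA, and for H3K27ac those of SNA and DCA, lay before the start. The others lay at or after it, and each mark had peaks at both places in every list.

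Counted over gene and flanks, starts included, the receptors held few ATAC peaks for their length but not few acetylation peaks. Bmpr1a held 3 ATAC peaks after Sham, 4 after SNA, 5 after Lam and 5 after DCA, and Bmpr2 held 6, 6, 13 and 5. Averaged over the 4 lists and per 10 kb of window, that is 0.379 and 0.561 ATAC peaks, more than in 18.9% and 29.5% of 5753 genes of like length. For H3K27ac and H3K9ac, Bmpr1a held more per 10 kb than 65.5% and 64.7% of those genes and Bmpr2 more than 57% and 57.7%. The 13 Bmpr2 ATAC peaks of the Lam list stand apart from the other 3 lists, and 8 of its regions were in the Lam list alone. In the gene body alone Bmpr2 held 5, 3, 5 and 3 ATAC peaks, so the excess of Lam over Sham lay in the flanks. Regions in the Lam list alone made up 16.9% of the family's ATAC regions, against 14.1% at genes of like length. For H3K27ac Bmpr1a held 2, 9, 5 and 5 peaks and Bmpr2 3, 5, 6 and 5; for H3K9ac they held 4, 9, 4 and 7, and 3, 5, 4 and 11. Their H3K27me3 peaks numbered 1, 3, 2 and 2 at Bmpr1a and 3, 1, 0 and 0 at Bmpr2. The strongest H3K27me3 peak of Sham with no counterpart in SNA, or in Lam, lay 2.92 kb from the Bmpr2 start (chromosome 1, 59761056 to 59761354, GRCm38), with a fold of 1.652 and a −log10 p of only 1.646. The strongest such peak of DCA against Lam was at Bmpr1a, 66.2 kb into the gene, with a fold of 1.299.

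Among the SMADs that BMP receptors phosphorylate, Smad1 had the highest ATAC peak density, with Smad9 next. It held 14 ATAC peaks after Sham, 18 after SNA, 16 after Lam and 18 after DCA, or 2.036 per 10 kb on average, more than 91.8% of genes of like length. Both axotomy lists thus held more than their own control, by 4 and by 2 peaks, and Lam held 2 more than Sham. With all lists cut to equal size by p-value the numbers were 14, 15, 16 and 17. The lead over Smad9 did not hold among stronger peaks. At a −log10 q of at least 5 Smad1 held 1, 4, 1 and 3 ATAC peaks in a window of 81.03 kb. Smad9 held 2, 3, 2 and 4 in 66.21 kb. At the Smad1 start the ATAC fold was 5.874 after Sham, 5.932 after SNA, 4.263 after Lam and 5.114 after DCA. Each axotomy list was thus above its own control there, SNA by little, while Sham was above DCA. H3K27ac at the start had folds of 4.346, 6.205, 11.81 and 3.256, and H3K9ac 3.696, 2.175, 5.324 and 4.598. The SNA H3K9ac peak was weak, with a −log10 q of 0.9933 and 8.576% of its list scoring lower. Lam was the highest of the 4 for both marks, and its H3K9ac peak (chromosome 8, 79398719 to 79399515, −log10 p 15.35) was the strongest of Lam at any of the 10 genes without a counterpart in Sham. The Sham H3K9ac peak at this start lay beside it without overlap, at 79398114 to 79398583.

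Across the whole of Smad1, H3K27ac peaks numbered 3, 6, 5 and 2 and H3K9ac peaks 9, 12, 6 and 9 in Sham, SNA, Lam and DCA. A stretch 48.8 kb from the start, in the gene body (chromosome 8, 79349987 to 79350617), held an ATAC peak and an H3K9ac peak in both axotomy lists and neither in both control lists. It had no H3K27ac peak in any list.

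Of the other BMP-activated SMADs, Smad5 and Smad9, Smad5 differed most from Smad1 in ATAC density. Smad5 held 3, 2, 2 and 5 ATAC peaks, 0.505 per 10 kb. Its start had ATAC folds of 3.547, 3.479, 3.433 and 3.191, within a narrow range. H3K27ac peaks at the Smad5 start had folds of 4.341, 6.89, 6.917 and 6.063, but the Sham peak lay at another place, so the SNA peak (chromosome 13, 56702396 to 56702946, −log10 p 16.41) and the Lam peak (−log10 p 17.66) were each the strongest without a counterpart in Sham. H3K9ac at the start was 3.26, 2.884, 3.828 and 5.744, and the Sham, SNA and Lam peaks there did not overlap each other. Another H3K27ac peak 28.7 kb into Smad5 was in Sham and Lam and in neither axotomy list, with a fold of 5.64 in Lam; no ATAC peak of the Lam list overlapped it.

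Smad9 was open at 13, 10, 11 and 12 sites (1.737 per 10 kb, more than 81.2% of genes of like length) but had little acetylation at its start. ATAC folds at the start were 3.208, 3.587, 3.294 and 3.385, nearly level. H3K27ac reached the Smad9 start only in SNA, with a fold of 3.855; the nearest H3K27ac peaks of the other lists were 19.4 to 20.2 kb away. H3K9ac reached it in Sham (fold 4.394, chromosome 3, 54755543 to 54755978) and in DCA (fold 2.169), and in SNA and Lam the nearest peaks were 19.1 and 19.2 kb away. That Sham peak was the strongest H3K9ac peak of Sham without a counterpart in SNA, and also in Lam. An ATAC peak 9.13 kb before the start was in Sham, SNA and DCA and absent from Lam (fold 2.423 in DCA). Smad9 also had the highest H3K27me3 density of the family, with 7, 5, 7 and 2 peaks (0.793 per 10 kb, more than 80.2% of genes of like length), again with no peak at a q of 0.05. The strongest of these in SNA with none in Sham (fold 1.683) lay at the end of a neighbouring gene, as did the strongest H3K9ac peak of Lam without a counterpart in DCA (fold 3.744, 52.6 kb from the Smad9 start). The genes Alg5 and Rfxap share the Smad9 window, and the peaks 51.4 kb from the start that were open and acetylated in all 4 lists lie near that end.

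Smad2, which carries TGF-β and activin signals, had the most open start of the 10 genes. Its ATAC fold was 6.287 after Sham, 7.134 after SNA, 7.14 after Lam and 7.553 after DCA, and 99.3% or more of each list had a lower p-value score. Acetylation there was patchy. H3K27ac was called in SNA (5.183) and DCA (3.391), the 2 axotomy lists, and in neither control list, where the nearest peaks were 15.4 kb (Sham) and 2.34 kb (Lam) away. H3K9ac was called in Sham (4.025) and DCA (5.158). Over the gene Smad2 held 4, 7, 4 and 4 ATAC peaks, 0, 6, 1 and 2 H3K27ac peaks and 1, 0, 4 and 6 H3K9ac peaks in Sham, SNA, Lam and DCA, so the 2 acetylation marks did not follow the same order of lists.

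Smad3, the other TGF-β SMAD, held 14 ATAC peaks after Sham, 25 after SNA, 19 after Lam and 15 after DCA. SNA exceeded Sham by 11, the largest ATAC difference in the family for that pair, while DCA held 4 fewer than Lam. The start had ATAC folds of 3.808, 4.57, 3.673 and 4.022. H3K27ac at the start had folds of 7.782, 5.069, 19.36 and 12.54, the highest of the 10 genes in Sham, Lam and DCA but not in SNA. H3K9ac came within 1 kb of the Smad3 start only in DCA (fold 5.021, chromosome 9, 63756506 to 63758871), the strongest H3K9ac peak of DCA without a counterpart in Lam. The nearest Sham peak was 1.02 kb away, just outside the limit, and those of SNA and Lam 2.36 and 2.72 kb.

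The strongest ATAC peak of SNA without a counterpart in Sham at any of the 10 genes was inside Smad3, 51 kb from the start (chromosome 9, 63706223 to 63707027, fold 2.505, −log10 p 10.74). Lam and DCA had no ATAC peak there either. H3K9ac peaks covered the same place in all 4 lists, with folds of 3.381 after Sham, 4.614 after SNA, 2.567 after Lam and 4.574 after DCA. The place thus carried the mark in every list and an ATAC peak in SNA alone. A site 54.3 kb from the start was open in SNA and Lam (fold 2.21 in Lam) and in neither Sham nor DCA, so it did not divide the axotomy lists from the controls. Another, 102 kb from the start, was open in Sham alone (fold 2.17). A narrow H3K27ac peak 40.6 kb into Smad3 was in Sham (fold 12.02, −log10 p 38.84) and DCA (fold 6.507), with no overlapping ATAC or H3K9ac peak in those lists.

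**Figure D2:**
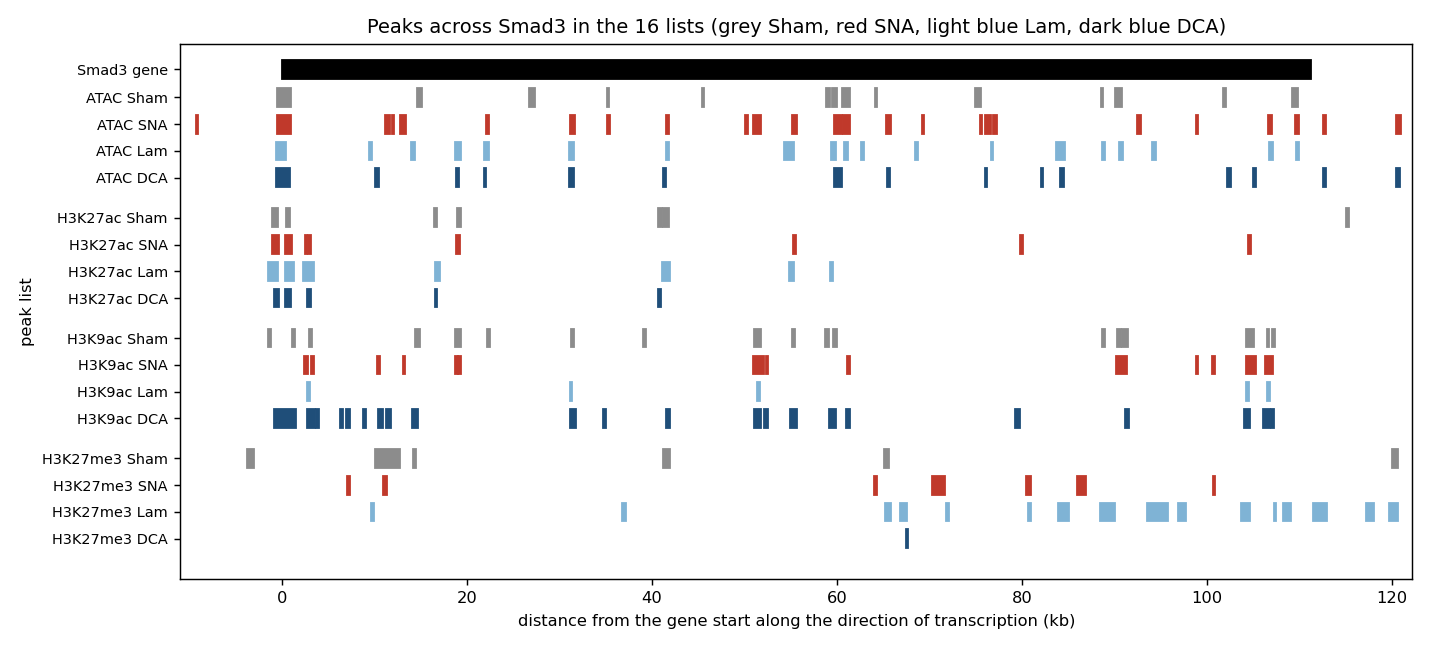
Peaks along Smad3 and 10 kb on either side, by distance from the start in kb; each row is 1 of the 16 lists and each block a peak (drawn at least 0.25 kb wide). H3K9ac blocks stand near 51 kb in all 4 lists and an ATAC block there in SNA only; Lam has 16 H3K27me3 peaks, none with a q of at most 0.05.

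Smad4, the common partner of both branches, was modestly marked. Its ATAC peaks numbered 7, 6, 5 and 7 and the ATAC folds at its ends were 4.339, 4.424, 4.707 and 5.18. H3K27ac folds at the gene's ends were 4.489, 8.476, 2.531 and 3.354, highest in SNA. The DCA peak did not overlap those of Sham, SNA and Lam. H3K9ac folds were 2.268, 2.669, 2.208 and 5.18, highest in DCA. The Sham H3K9ac peak was weak, with a −log10 q of 0.6729 and 18.62% of its list scoring lower. The SNA H3K9ac peak did not overlap those of Sham and Lam. In its flank an H3K27ac peak was called in Sham (fold 11.58, −log10 p 49.07), Lam (9.319) and DCA and not in SNA. It was the strongest H3K27ac peak of Sham at these genes without a counterpart in SNA, and no ATAC or H3K9ac peak overlapped it in Sham. Inside the gene, an ATAC peak with a fold of 2.559 in Sham was shared with Lam and absent from both axotomy lists.

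The inhibitory SMADs had the highest densities of acetylation peaks in the family. Per 10 kb and averaged over the lists, Smad6 held 1.657 H3K27ac and 2.219 H3K9ac peaks and Smad7 held 1.699 and 2.007. These densities exceed those of 93.4% to 94.9% of genes of like length, whose medians were 0.293 and 0.347. The 8 other genes held 0.248 to 0.514 H3K27ac peaks per 10 kb, below both inhibitors. When only H3K27ac peaks reaching a −log10 q of 5 were kept, few remained at Smad7, with 2, 1, 2 and 3 in the order Sham, SNA, Lam, DCA. Smad3 held 4, 2, 3 and 3 at that limit, but in a window of 131.2 kb against 48.57 kb for Smad7. Smad6 held 3, 4, 14 and 1, so that its excess lay mainly in Lam. For H3K9ac at that limit Smad6 held 0, 2, 0 and 16, Smad7 0, 0, 0 and 12, and Smad3 0, 0, 0 and 9. The strong H3K9ac peaks of both inhibitors thus lay almost all in DCA, the list with the highest scaled background, whose part was not tested. Smad7 also had the highest ATAC density, 2.162 per 10 kb (more than 94.8% of genes of like length), with 10, 12, 9 and 11 peaks.

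Smad6 held 12 H3K27ac peaks after Sham, 22 after SNA, 19 after Lam and 6 after DCA. Its H3K9ac peaks numbered 23, 18, 11 and 27, the reverse order for DCA, which was lowest for one mark and highest for the other. Only some of the acetylated stretches recurred in each list: 3 H3K27ac and 7 H3K9ac regions of Smad6 were called in all 4. Others were called in 1 list alone, such as 8 H3K27ac regions in Lam and 5 in SNA, and 10 H3K9ac regions in DCA. H3K27ac regions 23.2, 46.5 and 61.1 kb from the start were called after all 4 surgeries, and H3K9ac covered each of them in all 4 lists too. In the region 61.1 kb into the gene (chromosome 9, 63958660 to 63960936), the strongest H3K27ac peak had a fold of 4.227 after Sham, 6.222 after SNA, 5.694 after Lam and 2.633 after DCA. The H3K9ac region there spans 63958486 to 63961347 and held a single peak of 1798 bp in Sham, of 2573 bp in SNA and of 323 bp in Lam, but 3 separate peaks in DCA. How a stretch was cut into peaks therefore entered the counts.

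At the Smad6 start ATAC folds were 3.464, 2.805, 3.463 and 3.765. H3K27ac folds were 3.287 in SNA, 4.169 in Lam and 5.086 in DCA, with the nearest Sham peak 1.81 kb away. H3K9ac folds were 2.251, 2.298 and 3.884 in the same 3 lists, with the nearest Sham peak 3.74 kb away. The SNA H3K9ac peak was weak, with a −log10 q of 0.7131 and 2.971% of its list scoring lower. H3K27ac was thus called within 1 kb of the Smad6 start in every list except Sham, and H3K9ac, at a q of 0.05, in Lam and DCA. Of the 4 stretches that were open and acetylated in both axotomy lists and in neither control list, 2 belonged to Smad6: chromosome 9, 63972678 to 63973210, 48.8 kb into the gene, and 63949017 to 63950196, beyond its end. The former was acetylated without an ATAC peak in Sham (H3K9ac) and in Lam (H3K27ac). The latter was open in Sham without acetylation. Of the family's 213 ATAC regions, 6 were open and acetylated in Sham alone, 6 in SNA alone, 6 in Lam alone and 7 in DCA alone. No share at genes of like length was computed for these patterns, so the count of 4 has no background.

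**Figure D3:**
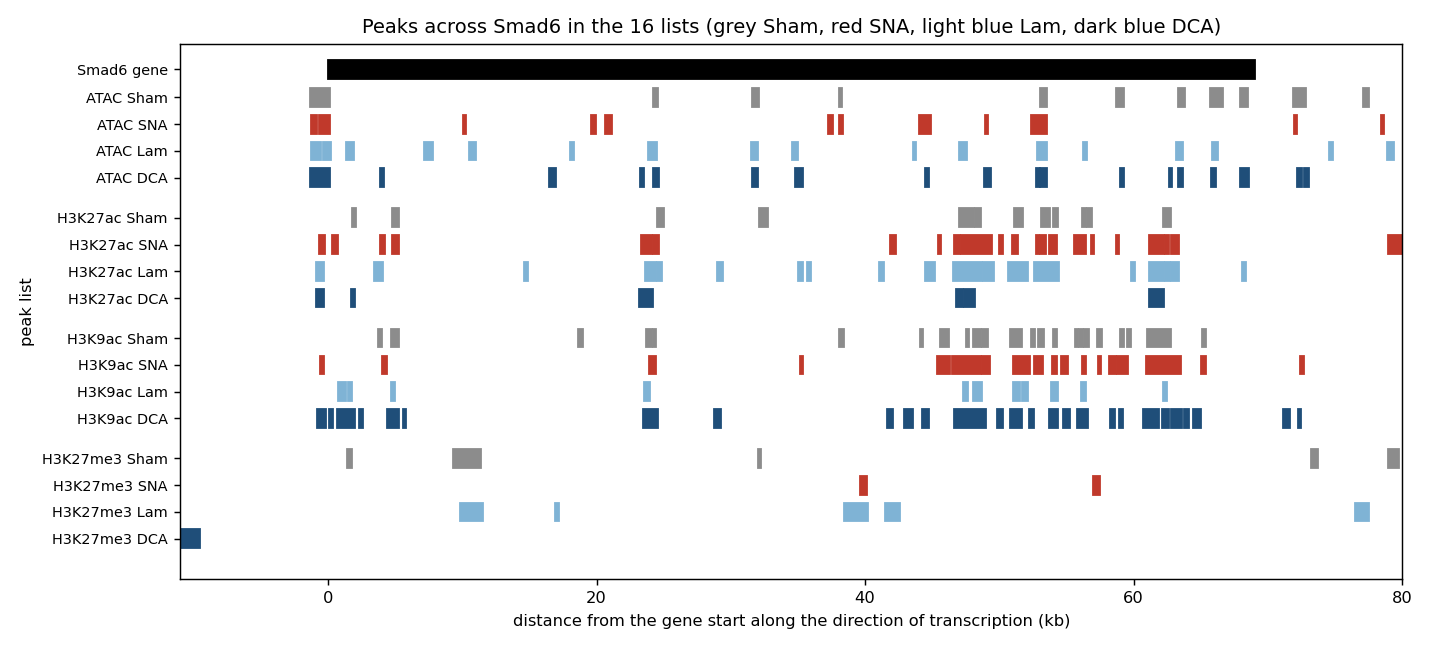
Peaks along Smad6 and 10 kb on either side, by distance from the start in kb; each row is 1 of the 16 lists and each block a peak (drawn at least 0.25 kb wide). H3K27ac and H3K9ac blocks recur near 23, 47 and 62 kb after all 4 surgeries, and no acetylation block lies within 1 kb of the start in the Sham lists; the SNA H3K9ac block near the start is weak.

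Smad7 held 9, 9, 9 and 6 H3K27ac peaks and 6, 10, 9 and 14 H3K9ac peaks. ATAC folds at its ends were 2.808, 2.94, 3.146 and 2.649, the lowest of the family in Sham, Lam and DCA and next to the lowest in SNA. H3K27ac was called there in Lam (3.453) and DCA (4.719) and not in Sham or SNA, where the nearest peaks were 1.73 and 2.75 kb away. H3K9ac was called in the same 2 lists, with folds of 1.762 in Lam and 7.178 in DCA. The Lam peak was weak, with a −log10 q of 0.3692 and only 1.115% of its list scoring lower, so at a q of 0.05 H3K9ac was at the Smad7 ends in DCA alone. The 2 H3K9ac lists without a peak there are also those with the lowest scaled background, whose part was not tested. An H3K9ac peak inside the gene was called in SNA (fold 4.354), Lam and DCA and not in Sham. In its flank Smad7 had the remaining stretch that was open and acetylated after both axotomies only; it was open in Sham too, without acetylation.

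**Figure D4:**
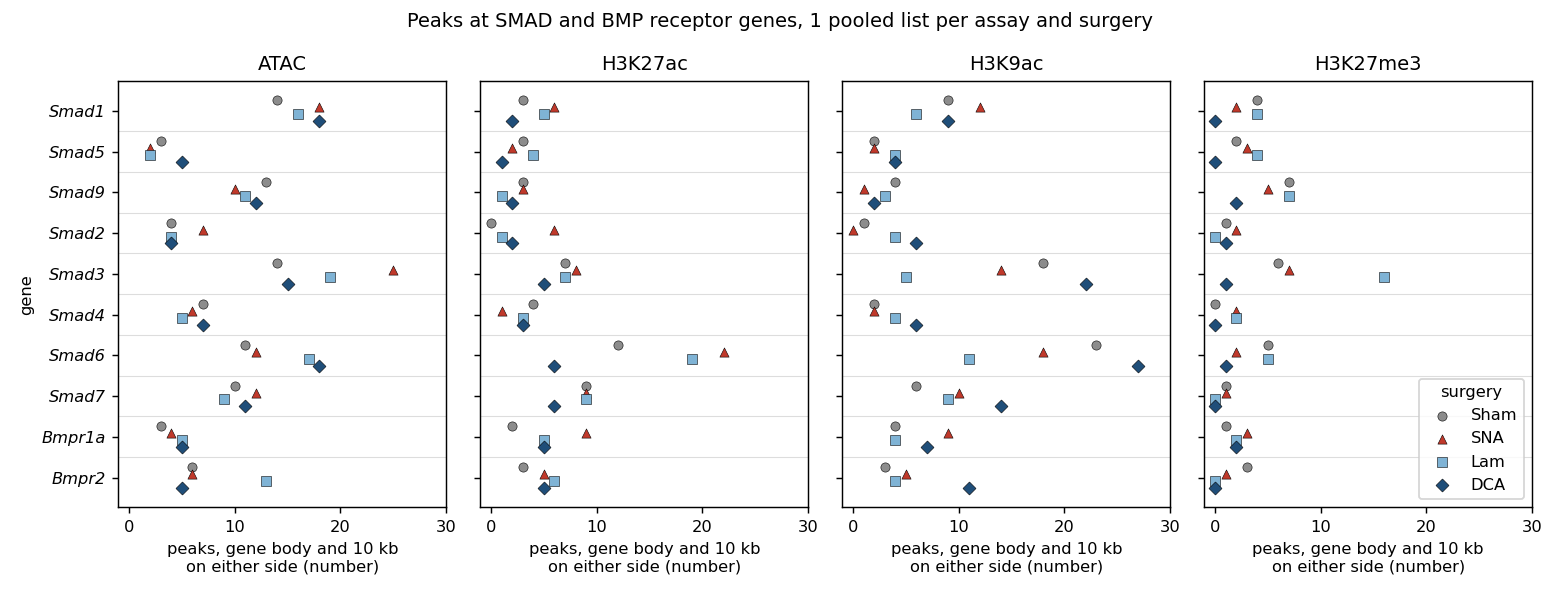
Number of peaks in the gene body and 10 kb on either side for each of the 10 genes in the 4 lists of each assay. Smad3 with 25 ATAC peaks in SNA, Smad6 with 22 H3K27ac peaks in SNA and Smad6 with 27 H3K9ac peaks in DCA are the highest points of those panels; H3K27me3 is at most 2 in DCA.

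Summed over the family, the SNA list held more ATAC and H3K27ac peaks than the Sham list, as across other genes. The Lam list, without axotomy, also held more of both than Sham. ATAC peaks numbered 85 after Sham, 102 after SNA, 101 after Lam and 100 after DCA. SNA held 54.55% of the SNA and Sham peaks (47.39% to 61.52%), against 54.47% at genes of like length. Lam held nearly the same share with Sham, 54.3% (47.13% to 61.3%), against 52.65%. At least 3 more peaks in SNA than in Sham were found at Smad1, Smad2 and Smad3, 3 of 10 against 30.4% of genes of like length, and at least 3 fewer at Smad9 (7.06%). In DCA against Lam, Smad5 held at least 3 more (16.3%) and Smad3 and Bmpr2 at least 3 fewer (16.9%). Lam held at least 3 more than Sham at Smad3, Smad6 and Bmpr2 (24.5%) and at least 3 fewer at none (10.9%). The 2 surgeries without axotomy differed at 3 of the genes, SNA and Sham at 4.

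H3K27ac peaks numbered 46 after Sham, 71 after SNA, 60 after Lam and 37 after DCA. SNA held 60.68% of its pair (51.63% to 69.06%), against 63.26% at genes of like length, and DCA 38.14% (29.1% to 48.09%), against 41.47%. Lam held 56.6% with Sham (47.1% to 65.64%). The list with the nerve cut was the larger of its pair and the list with the dorsal column cut the smaller, in the family as in the whole lists (63.38% and 40.85%). Smad1, Smad2, Smad6 and Bmpr1a held at least 3 more peaks in SNA than in Sham (background 26.4%), and Smad4 at least 3 fewer (1.86%). No gene of the family held at least 3 more in DCA than in Lam (1.06%), and Smad1, Smad5, Smad6 and Smad7 held at least 3 fewer (19.4%). Lam exceeded Sham by at least 3 at Smad6, Bmpr1a and Bmpr2 (22.4%), and was below it by 3 at none (0.643%). The SNA excess over Sham did not hold among stronger peaks: the SNA share was 45.24% with lists cut to equal size by p-value and 44.74% at a −log10 q of at least 5.

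For H3K9ac, calls of at least 3 fewer peaks in SNA lay far above their background. Peaks numbered 72 after Sham, 73 after SNA, 54 after Lam and 108 after DCA. SNA held 50.34% of its pair (42.3% to 58.37%), and the interval leaves out the 58.64% of genes of like length. Smad9, Smad3 and Smad6 held at least 3 fewer peaks in SNA than in Sham, 3 of 10 where 0.834% of genes of like length did; Smad1, Smad7 and Bmpr1a held at least 3 more (21.9%). The result depended on weak peaks of the Sham list, which has the lowest scaled background. When only peaks of q up to 0.05 were kept, Smad6 held 10 in Sham and 16 in SNA, and Smad3 9 and 12, so the direction turned for both. Smad9 held 3 and 0 at that limit. With all lists cut to equal size, Smad6 held 23 and 10 and Smad3 18 and 9, while Smad1, with 9 and 5, and Bmpr1a, with 4 and 3, turned from more in SNA to fewer.

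DCA held 66.67% of the H3K9ac peaks of DCA and Lam (59.1% to 73.47%), against 63.01% at genes of like length. Smad1, Smad3, Smad6, Smad7, Bmpr1a and Bmpr2 held at least 3 more in DCA than in Lam (32.7%) and no gene of the family at least 3 fewer (0.869%). With all lists cut to equal size 3 of these 6 turned, Smad1 with 4 in DCA and 6 in Lam, and Bmpr1a and Bmpr2 each with 3 and 4. The DCA list had the highest scaled background of the 4, and its part in this difference was not tested. Lam against Sham gave at least 3 more at Smad2 and Smad7 (7.98%) and at least 3 fewer at Smad1, Smad3 and Smad6 (8.64%). Smad3 and Smad6 were thus below Sham in Lam as well as in SNA, and both comparisons share the Sham list.

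H3K27me3 peaks numbered 30 after Sham, 28 after SNA, 40 after Lam and 7 after DCA, all weak. DCA held 14.89% of its pair with Lam (7.407% to 27.69%), below the 28.98% of genes of like length and the 36.88% of the whole lists. At least 3 fewer in DCA than in Lam were found at Smad1, Smad5, Smad9, Smad3 and Smad6 (5 of 10 against 41.9%) and at least 3 more at none (1.91%). SNA held at least 3 more than Sham at none (13.1%) and at least 3 fewer at Smad6 (12.7%). Lam held at least 3 more than Sham at Smad3, with 16 against 6 (28.2%), and at least 3 fewer at Bmpr2 (5.25%). The strongest Lam peaks without a counterpart had folds of 1.778 (at Smad5, against DCA, at the end of a neighbouring gene) and 1.638 (at Smad3, against Sham).

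**Figure D5:**
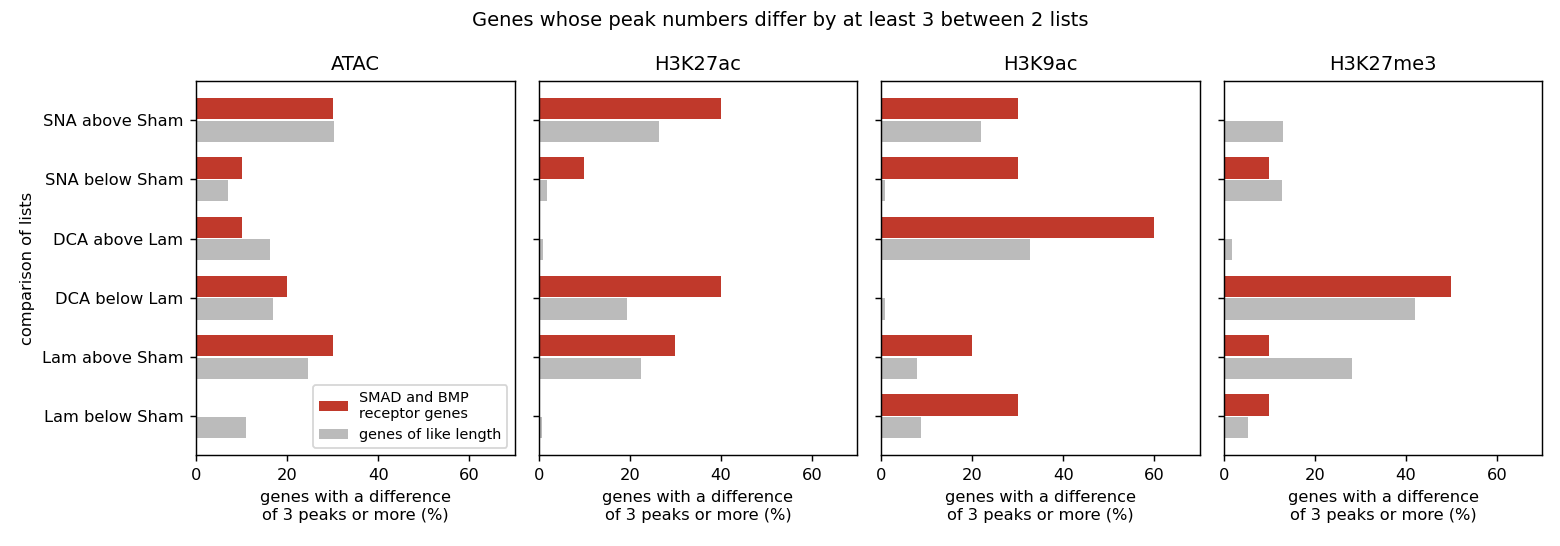
Share of genes whose peak number differs by at least 3 between 2 lists, for the 10 SMAD and BMP receptor genes (red) and 5753 genes of like length (grey), by assay, pair of lists and direction. The widest gap is in H3K9ac, SNA below Sham, with 3 of 10 genes against 0.834%, which turns for 2 of the 3 genes at a q of at most 0.05.

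How many peaks recurred differed between assays and pairs of lists. Of the family's 102 ATAC peaks of SNA, 59.8% had no overlapping peak in Sham (50.1% to 68.8%), close to the 59.6% of the whole list. Of its 72 H3K9ac peaks of Sham, 37.5% had none in SNA (27.2% to 49%), above the 22% of the whole list. Against Lam, without axotomy, the share of these Sham peaks was also above the whole list, at 59.7% (48.2% to 70.3%) against 43.2%. Of its 37 H3K27ac peaks of DCA, 32.4% had none in Lam (19.6% to 48.5%), close to the 27.9% of the whole list. Of its 54 H3K9ac peaks of Lam, 20.4% had none in DCA (11.8% to 32.9%), close to the 18.5% of the whole list. When the 4 ATAC lists were merged into 213 regions, 23 were open in all 4 lists, 14 in both axotomy lists only and 6 in both control lists only. The corresponding shares were 10.8%, 6.57% and 2.82%, against 13.5%, 4.33% and 2.57% at genes of like length. The 14 regions lay at Smad1 and Smad3 (4 each), Smad2 and Smad6 (2 each), and Smad9 and Smad4 (1 each), and none at Smad5, Smad7 or the receptors. Of 138 H3K9ac regions 14 (10.1%) were in both axotomy lists only and 1 (0.725%) in both control lists only, against 8.44% and 0.341% at genes of like length. For 103 H3K27ac regions the numbers were 1 (0.971%) and 2 (1.94%), against 2.2% and 2.36%. As a description without a background, regions open and acetylated in the same list numbered 26 after Sham, 28 after SNA, 30 after Lam and 36 after DCA, 11 of them in all 4 lists, and for 6 of the 10 genes (Smad1, Smad5, Smad3, Smad4, Bmpr1a and Bmpr2) a region of that last kind covered the start, or for Smad4 an end.

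The other genes of the pathway were 34 ligands, receptors, inhibitors and targets. For H3K27ac, 13 of the 34 held at least 3 more peaks in SNA than in Sham and 1, the BMP receptor Bmpr1b, at least 3 fewer, against 19.1% and 1.4% of all protein-coding genes. The largest differences were at Tgfbr3, the betaglycan co-receptor, with 79 peaks in SNA and 29 in Sham, and at Tgfbr2, the type II TGF-β receptor, with 41 and 19, and Ski, a repressor of SMAD complexes, with 43 and 21. Lam, without axotomy, held at least 3 more than Sham at 13 of the 34 as well (15.6% of all genes) and exceeded it at these 3 genes, with 68 peaks at Tgfbr3, 34 at Tgfbr2 and 33 at Ski, and 10 of the 34 genes held at least 3 fewer in DCA than in Lam (13.4% of all genes). For H3K9ac, 8 of the 34 held at least 3 more in SNA than in Sham and none at least 3 fewer (15.2% and 0.726% of all genes), and 13 held at least 3 more in DCA than in Lam (23.6%). Tgfbr3 again led, with 41 H3K9ac peaks after Sham, 88 after SNA, 53 after Lam and 93 after DCA. These counts are not per length, and Tgfbr3 spans 183.1 kb.

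ATAC differences in the pathway were smaller and ran both ways. SNA held at least 3 more than Sham at 4 genes (20.6% of all genes), led by Acvr1, a BMP type I receptor, with 20 and 12 peaks, and Bmp5, with 5 and 0, and at least 3 fewer at Tgfbr3 (5.83%). Against Lam, DCA held at least 3 more at 4 genes (11.4%), such as Tgfbr2 with 23 and 13. Acvr1b, an activin type I receptor, held 11 in DCA and 18 in Lam. Summed, and not per gene or length, the 11 ligand genes carried 57 H3K27me3 peaks after Sham, 64 after SNA, 93 after Lam and 42 after DCA. The 9 other receptors carried 25, 36, 46 and 23, and the 9 inhibitors 15, 16, 24 and 11. Bmp6, which spans 154.6 kb, alone held 15 of the ligand peaks after Sham, 30 after SNA, 34 after Lam and 27 after DCA. At most 1.312% of the H3K27me3 peaks of any list had a q of at most 0.05.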

How the data were processed

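Peak lists were analysed for ChIP-seq and ATAC-seq of mouse DRG, 24 hours after surgery. The authors deposited, per the labels, 1 list per assay and surgery with replicates pooled; the aligner and peak caller are not given in the sources used here, and the build is mm10 per the submitters' processing notes. The deposited score column was not used further. The deposited columns used were the authors' fold enrichment, a ratio of signal to background, and −log10 p and −log10 q, as the authors gave them. Repeated ATAC intervals were collapsed. Peaks were assigned to RefSeq genes of GRCm38 with Python 3.11.15 and pandas 2.3.3. Lists were compared by overlap of at least 1 bp, and a gene was called where 2 lists differed by at least 3 peaks. The scaled background of each narrow list was recovered from fold and p (all peaks used matched within 0.003), and counting and recovery were tested on simulated data. All 10 genes are named; peaks named are the strongest at each start and the strongest without a counterpart per comparison, plus stretches open and acetylated in both axotomy lists only or both control lists only. Other Smad3, Smad6 and Smad4 sites were chosen after their values were seen. The genes and lists were chosen with earlier results of these data known. Alternatives were 2 stricter q limits, equal list sizes, the gene body alone, a 20 kb flank, a 2 kb start window, 50% reciprocal overlap and every ATAC summit counted. The summed peaks of the pathway's target genes are not reported here.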

Additional observations from a re-analysis of the deposited data

How the results depend on the processing

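Of 253 alternative values of the summary results, 185 stayed within their counting error, 66 moved and 2 turned; of the net numbers of single genes, 14 turned. The 2 that turned were the SNA share of the family's H3K27ac peaks with Sham, 44.74% at a −log10 q of at least 5 and 45.24% with equal list sizes. The cause of each change was not tested.

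With a −log10 q of at least 5, ATAC peaks without a counterpart were 40% (SNA against Sham), 15.38% (Sham against SNA), 38.1% (DCA against Lam), 6.667% (Lam against DCA), 20% (Lam against Sham) and 15.38% (Sham against Lam), and the DCA share of ATAC peaks with Lam was 58.33%. For H3K27ac they were 35.29% (SNA against Sham) and 19.05% (Sham against Lam). For H3K9ac they were 75% (SNA against Sham), 0% (Sham against SNA), 91.07% (DCA against Lam), 0% (Lam against DCA), 80% (Lam against Sham) and 0% (Sham against Lam), and the shares 80% (SNA with Sham), 91.8% (DCA with Lam) and 83.33% (Lam with Sham). Starts with H3K27ac were 5 in Lam, and with H3K9ac 1 in Sham, 2 in SNA and 4 in Lam. The differences that turned were Smad9 ATAC, SNA minus Sham (1), Smad3 ATAC, Lam minus Sham (-1), Smad7 H3K27ac, DCA minus Lam (1), Smad6 H3K9ac, SNA minus Sham (2), and Smad1 H3K9ac, Lam minus Sham (1).

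With a q of at most 0.05, the H3K9ac shares were 61.62% (SNA with Sham) and 54.22% (Lam with Sham), and peaks without a counterpart 63.93% (SNA against Sham) and 60% (Lam against Sham). Smad3 and Smad6 H3K9ac, SNA minus Sham, turned to 3 and 6. Starts with H3K27me3 were 0 in Sham and 0 in SNA at either q limit.

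With equal list sizes, the H3K27ac share of Lam with Sham was 46.51%, and H3K27ac peaks without a counterpart were 42.11% (SNA against Sham), 56.52% (Sham against SNA) and 50% (Sham against Lam). The H3K9ac shares were 35.71% (SNA with Sham) and 54.62% (DCA with Lam), and H3K9ac peaks without a counterpart 56.94% (Sham against SNA) and 50.77% (DCA against Lam). H3K9ac starts in SNA were 3 and H3K27me3 starts in Sham 0, and H3K27me3 peaks without a counterpart were 100% in SNA against Sham and in the reverse. Smad1 H3K27ac (-1), Smad1 H3K9ac (-4) and Bmpr1a H3K9ac (-1) turned for SNA minus Sham, and Smad7 H3K27ac (1) and Smad1 (-2), Bmpr1a (-1) and Bmpr2 (-1) H3K9ac for DCA minus Lam.

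With an overlap of 50% of each peak, peaks without a counterpart were, for ATAC, 62.35% (Sham against SNA), 65% (DCA against Lam), 64.36% (Lam against DCA), 71.29% (Lam against Sham) and 65.88% (Sham against Lam). For H3K27ac they were 80.28%, 69.57%, 56.76%, 73.33% and 50% (SNA against Sham, Sham against SNA, DCA against Lam, Lam against DCA, Sham against Lam). For H3K9ac they were 68.49%, 68.06%, 85.19%, 70.37%, 68.52% and 76.39%, with Lam against Sham before the last, and for H3K27me3 96.43%, 96.67%, 100%, 100%, 90% and 86.67% in that order. In the gene body alone, 95% of the SNA H3K27me3 peaks had none in Sham, and a 2 kb window gave 2 H3K27me3 starts in Sham.

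No paired analysis was possible because each list pools its replicates and no result comes from a test; for the same reason no replicate could be left out. Depth per library is unknown; in the H3K9ac Sham list, with the lowest scaled background, 38 of the family's 72 peaks had a q of at most 0.05, and in DCA 108 of 108. The part of depth was not tested.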
